A study of Mus musculus with 16 samples.

Results

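The 10 genes described here make long non-coding RNAs. Of these, 7 are hosts of small nucleolar RNAs (snoRNAs), namely Gas5, Snhg1, Snhg3, Snhg6, Snhg8, Snhg12 and 1110038B12Rik, and 3 are other long non-coding RNAs, namely Lockd, Malat1 and Neat1. They were selected by name from the 22328 genes on the array that had a reference symbol, Lockd through an older clone name. Where a gene had several probes, the probe was chosen by brightness, as the highest mean log2 intensity over all arrays and both channels, so that brightness itself is no finding here. The list of genes was drawn up with earlier results of these data known, including their ratios and levels in both genotypes. Counts of genes that changed are therefore descriptions, to be read beside the share of all tested genes that changed in the same direction.

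A snoRNA host is transcribed and spliced like an mRNA, and its introns carry snoRNAs, the guides that direct chemical modification of ribosomal RNA. The spliced exons of several hosts, Gas5 among them, have no long open reading frame, are bound by ribosomes and are then removed by nonsense-mediated decay, which depends on translation. Several hosts also begin with a terminal oligopyrimidine (TOP) tract, the start that ribosomal protein mRNAs carry and that ties their translation to growth signals. Malat1 is a nuclear RNA of splicing speckles, Neat1 is the scaffold of nuclear paraspeckles, and Lockd is transcribed from just downstream of Cdkn1b, the gene of the cell cycle inhibitor p27.

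The RNA came from mouse OT-1 T cells, whose transgenic receptor recognises SIINFEKL, a peptide of ovalbumin. Both genotypes were OT-1het and Rag-/-, from lymph node, and were WT or Lck-/-, Lck being the kinase that acts first once the receptor binds its peptide. All cells received 100 nM SIINFEKL for 24 h and 100 µg/ml cycloheximide, which holds ribosomes on RNA, for the last 10 min. Lysates freed of nuclei were separated on sucrose of 10 to 50%, and fractions 1 to 5 formed the sub-polysomal pool and fractions 6 to 10 the polysomal pool. Each pool was labelled from a fixed volume of 1.5 µl of RNA and not from a fixed mass. There were 8 extracts, 4 WT and 4 Lck-/-, and each was hybridised to 2 of the 16 two-colour arrays with the dyes swapped. The labels do not give the age of the animals, how many were pooled, or whether each extract had its own animal or culture. The p-values therefore cover the spread between these samples alone, and that spread may be technical. Fewer cells of a type and less RNA per cell cannot be told apart in such bulk extracts.

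Per array, 14636 to 50790 probes passed the scanner's background test in the polysomal channel and 12550 to 31020 in the sub-polysomal channel, and 0 spots were saturated. The highest count, 50790, came from 1 array of Lck-/- replicate 1, and no other array passed 26672. For the extracts labelled WT replicates 1 and 2, array and dye swap went against their labels. Deviations of the ratio from the mean of the same genotype and dye orientation correlated at -0.83 and -0.81 within these extracts, while the range was 0.46 to 0.85 for the remaining 6, and at 0.87 and 0.94 between each extract and the dye swap of the other. Results are given as labelled, then with these dye-swap arrays exchanged (crossed dye swaps), which keeps the WT mean and changes its spread, and without both extracts. Lck itself had mean levels of 14.72 to 15.17 (log2 intensity) in WT extracts and 14.04 to 14.36 in Lck-/- extracts, which did not overlap, and was still well above background on all 16 arrays. Of the T cell markers 8 of 8 were well above background on most of the channels, with summed linear intensities of 116000 to 145000 in WT and 128000 to 141000 in Lck-/- extracts. Markers of macrophages and dendritic cells were detected for 4 of 9, and their summed linear intensity was 3800 to 6550 in WT and 3160 to 4440 in Lck-/- extracts. Of these 4, Cd68 fell by 0.78 (limma adjusted p = 0.00370) and Batf3 by 1.01 (adjusted p = 0.0101) in the mean level. These 2 moved in the same direction as the falls described below. Itgam stood at -0.71 (adjusted p = 0.0732) and Csf1r, in the other direction, at 0.28 (adjusted p = 0.509), and neither passed. Cd4 was well above background on all 16 arrays, with summed intensities of 480 to 859 in WT and 527 to 707 in Lck-/- extracts. Erythroid markers summed to 316 to 424 in WT and 381 to 1480 in Lck-/- extracts, and Hba-a1 stood at 1.03 (adjusted p = 0.124). Detection reached 0 of 2 markers of NK cells, 1 of 6 of stroma and endothelium, 1 of 3 of erythroid cells and 1 of 5 of B cells. The part of such cells in the results was not tested.

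An array reads each RNA through a 60-base probe, and probes behind clear differences are shown in the sense of the RNA, with positions on mouse build mm9 as the scanner files give them. Whether a probe lies in an exon was not analysed here.
Snhg1, chr19:8798913-8798972, plus strand: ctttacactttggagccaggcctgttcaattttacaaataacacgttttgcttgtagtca
Gas5, chr1:162968608-162968667, plus strand: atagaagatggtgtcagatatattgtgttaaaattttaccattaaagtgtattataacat
Lockd, chr6:134901431-134901490, plus strand: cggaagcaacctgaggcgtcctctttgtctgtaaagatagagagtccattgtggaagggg
Malat1, chr19:5795713-5795772, minus strand: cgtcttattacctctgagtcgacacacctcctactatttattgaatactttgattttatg
These probes are shown because the results for these genes rest on them. Those of Snhg1 and Gas5 shared no stretch of 15 bases with any other gene's probe on either strand, out of 55680 probes searched. The Lockd probe shared such a stretch with 1 probe listed under another name and the Malat1 probe with 2.

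The 10 genes were read by 13 probes, of which Gas5 had 3, Snhg12 had 2 and the others 1 each. The probe of Snhg8 was not well above background on any array, so Snhg8 has no level here and entered no test. Both channels of the Malat1 probe cleared background on 6 of 8 WT arrays and 4 of 8 Lck-/- arrays. It entered the tests of levels, whose filter needs only 1 genotype, but not the test of the ratio. The probes of the other 8 genes were well above background in both channels on all 16 arrays. Tests below are therefore over 8 genes for the ratio and 9 for the levels.

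The first question is how far from polysomes these RNAs lay. The ratio is the log2 of polysomal over sub-polysomal signal after loess normalisation, which sets the typical RNA of each array to about 0. In WT cells all 8 tested genes lay below 0 (limma adjusted p from 5.31e-08 for Snhg3 to 0.000745 for Lockd), as did 28.7% of the 8263 genes tested. In Lck-/- cells 7 of 8 did, beside 29.2% of all genes, and Lockd did not pass (-0.41, SE 0.21, adjusted p = 0.122). In WT the snoRNA hosts were the lowest of the 8. There Snhg6 had a ratio of -3.53 ± 0.51 (SD, n = 4), Snhg12 -3.24 ± 0.49, Gas5 -3.19 ± 0.46, Snhg1 -2.71 ± 0.44, Snhg3 -2.56 ± 0.16 and 1110038B12Rik -2.27 ± 0.32. Neat1 stood at -2.11 ± 0.15 and Lockd at -1.17 ± 0.67, and neighbours in this order lay within 1 SD of each other except for Gas5 and Snhg1 and for Neat1 and Lockd. The order was not the same in Lck-/-. There Neat1, at -1.63 ± 0.47, lay below the hosts 1110038B12Rik (-1.42), Snhg1 (-1.36) and Snhg3 (-0.98). Because nuclei were removed, Neat1 and Malat1 signal here is that of RNA in the cytoplasmic lysate or released from nuclei, which the data do not separate.

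The second question is whether the position of these RNAs differed between genotypes. Snhg3 and Snhg1 lay closer to the typical RNA in Lck-/- cells, and the other tested genes stood in the same direction without passing the test. Of the 8 genes 2 rose in the ratio and 0 fell, beside 2.81% of all genes that rose and 1.05% that fell, and their median difference was 1.17 against -0.04 for all genes. Snhg3 had ratios of -2.50, -2.40, -2.58 and -2.78 in the WT extracts and -0.98, -1.24, -0.90 and -0.80 in the Lck-/- extracts. As labelled the genotypes were far apart and each was tight, and Snhg3 rose by 1.59 (SE 0.14, limma adjusted p = 0.00157). WT replicate 1 was the average of arrays at -3.54 and -1.46, and WT replicate 2 of arrays at -1.40 and -3.40. With crossed dye swaps -3.54 pairs with -3.40 and -1.40 with -1.46, so that WT was not tight. The lowest Lck-/- extract lay at -1.24. Snhg1 had -2.25, -2.46, -2.91 and -3.22 in WT and -1.03, -2.01, -1.19 and -1.20 in Lck-/-. Its Lck-/- replicate 2 lay lowest but, as labelled, still above every WT extract. Snhg1 rose by 1.35 (SE 0.25, adjusted p = 0.0171).

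**Figure D1:**
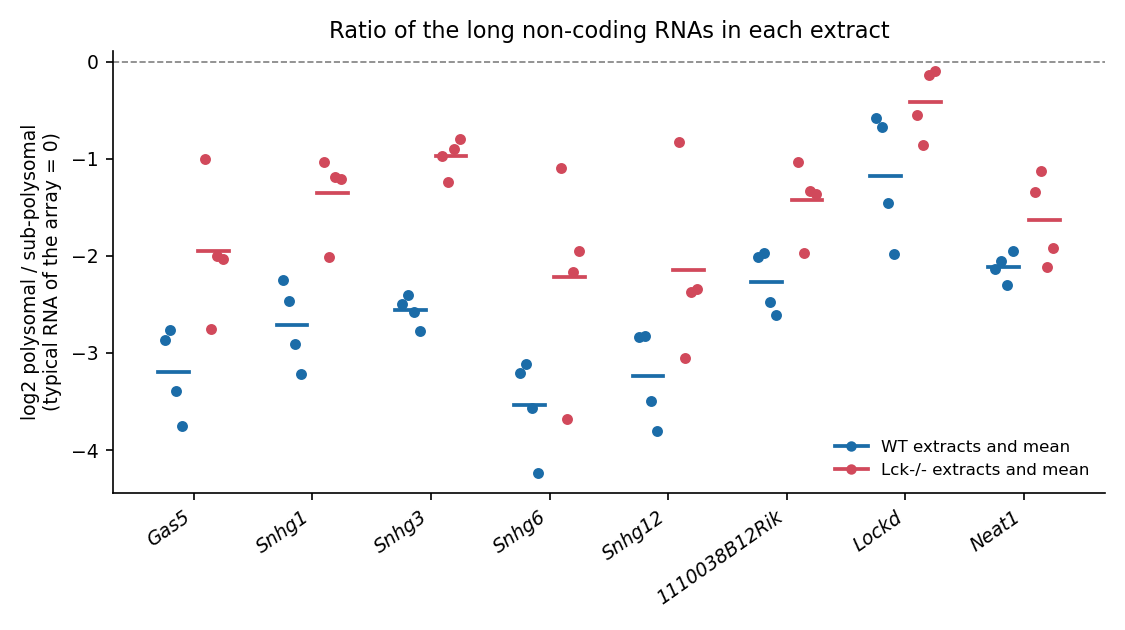
The plot gives the log2 ratio of polysomal over sub-polysomal signal for the 8 tested genes, with a point for each extract (4 WT, 4 Lck-/-), a bar at each mean and a dashed line at the typical RNA of an array. With extracts as labelled, Snhg3 shows 2 tight groups at -2.56 and -0.98, whereas the Lck-/- extracts of Snhg6 run from -3.67 to -1.10.

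The remaining hosts had mean differences of 0.84 to 1.31, none of which passed the test. Gas5 stood at -2.87, -2.77, -3.39 and -3.75 in WT and at -1.0, -2.75, -2.01 and -2.03 in Lck-/-. As labelled Gas5 had no overlap, although the highest WT extract at -2.77 and the lowest Lck-/- extract at -2.75 nearly met. Its difference of 1.25 (SE 0.33) gave adjusted p = 0.0682. Its 2 dimmer probes, on the same strand and at chr1:162967350-162967409 and chr1:162966369-162966428, read differences of 1.35 and 1.24 with SDs of at most 0.27. Snhg6 ran from -3.67 to -1.10 in Lck-/- (difference 1.31, SE 0.45, adjusted p = 0.148) and Snhg12 from -3.05 to -0.83 (1.09, SE 0.41, adjusted p = 0.172), and in both replicate 1 was highest, replicate 2 lowest and the genotypes overlapped. 1110038B12Rik differed by 0.84 (SE 0.21, adjusted p = 0.0566). Without Lck-/- replicate 1, the extract whose array had the highest count of probes above background, Snhg12 differed by 0.65, Snhg6 and Gas5 by 0.93, Snhg1 by 1.24 (adjusted p = 0.0449) and Snhg3 by 1.59 (adjusted p = 0.00119). As labelled, the extracts of 3 of 8 genes did not overlap, namely Gas5, Snhg1 and Snhg3. Beside this, 5.72% of all genes were higher in every Lck-/- extract. With crossed dye swaps Gas5 and Snhg1 overlapped and Snhg3 did not. For Gas5 an exchanged WT pair of arrays read -2.57 and -2.74, and for Snhg1 -1.86 and -1.76. Each pair lay above Lck-/- replicate 2 of its gene, at -2.75 and -2.01.

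Of the RNAs that host no snoRNA, neither of those tested passed. Lockd differed by 0.76 (SE 0.30, adjusted p = 0.192), with WT replicates 1 and 2 at -0.58 and -0.68 and WT replicates 3 and 4 at -1.45 and -1.98, and Lck-/- extracts from -0.86 to -0.10, so that the genotypes overlapped. Neat1 differed by 0.48 (SE 0.21, adjusted p = 0.225) and its genotypes overlapped. On leaving out 1 extract Lockd ranged from 0.49 (without WT replicate 4) to 0.96 and Neat1 from 0.32 (without Lck-/- replicate 2) to 0.65. Malat1, not tested because of its dim probe, read -1.44, -1.70, -1.45 and -1.31 in WT and -0.79, -0.48, -0.60 and -0.57 in Lck-/-, which did not overlap. Its difference of 0.86 is given here as a description.

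The 2 ratio calls did not hold with the doubtful WT extracts paired the other way. With crossed dye swaps 0 of 8 genes passed, and Snhg3 kept its difference of 1.59 with SE 0.36 and adjusted p = 0.118 and Snhg1 its 1.35 with SE 0.32 and adjusted p = 0.142, while all genes called fell from 319 to 41. Without WT replicates 1 and 2 both passed, Snhg3 at 1.70 and Snhg1 at 1.71, each with adjusted p = 0.0415. The arrays lay on 2 slides, and as labelled each extract had 1 array on either slide. The crossed pairs of WT replicates 1 and 2, however, each lay on 1 slide. For these 2 extracts an exchange of arrays and a difference between slides therefore cannot be told apart. Their Snhg3 arrays read -3.54 and -3.40 on slide 1 and -1.40 and -1.46 on slide 2. WT replicate 3 read -2.56 and -2.59, and WT replicate 4 -2.90 and -2.66, on slides 1 and 2. On slide 1 Snhg3 rose by 2.08 (adjusted p = 0.00337) and Snhg1 by 1.59 (adjusted p = 0.00558), and on slide 2 they stood at 1.09 (adjusted p = 0.159) and 1.11 (adjusted p = 0.207). Without Lck-/- replicate 2 the count was 5 of 8, and without Lck-/- replicate 3 or 4 it was 1, with Snhg3 kept and Snhg1 at adjusted p of up to 0.0595. All genes called moved too, from 319 to 443 without Lck-/- replicate 2, 104 without replicate 3 and 103 without replicate 4. They numbered 188 on slide 1, 37 on slide 2 and 86 without WT replicates 1 and 2.

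The sign of these differences also depends on what the ratio is measured against. Before loess the median ratio of all tested genes was 1.04 to 1.73 in WT extracts and 0.21 to 0.78 in Lck-/- extracts, and the median difference of all genes was -0.78. On that scale 5940 of 8263 genes fell and 40 rose, and Snhg3 differed by 0.70 (limma adjusted p = 0.0190), Snhg1 by 0.44 and Gas5 and Snhg6 by 0.27, while 1110038B12Rik, Lockd and Neat1 turned to -0.18, -0.09 and -0.29. In the authors' deposited ratios, where the median of all genes was -1.15 and 7426 of 8263 fell, Snhg3 stood at 0.50, Snhg1 at 0.17 and Gas5 at -0.09, and Neat1 fell by 0.67 (adjusted p = 0.0400). With each column of the authors' deposited table centred on its median Snhg3 rose by 1.68 and Snhg1 by 1.35, close to the values after loess. Every one of the 8 genes stood above the median of all genes on each of these scales, so what the ratio shows for them is relative to other RNAs.

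**Figure D2:**
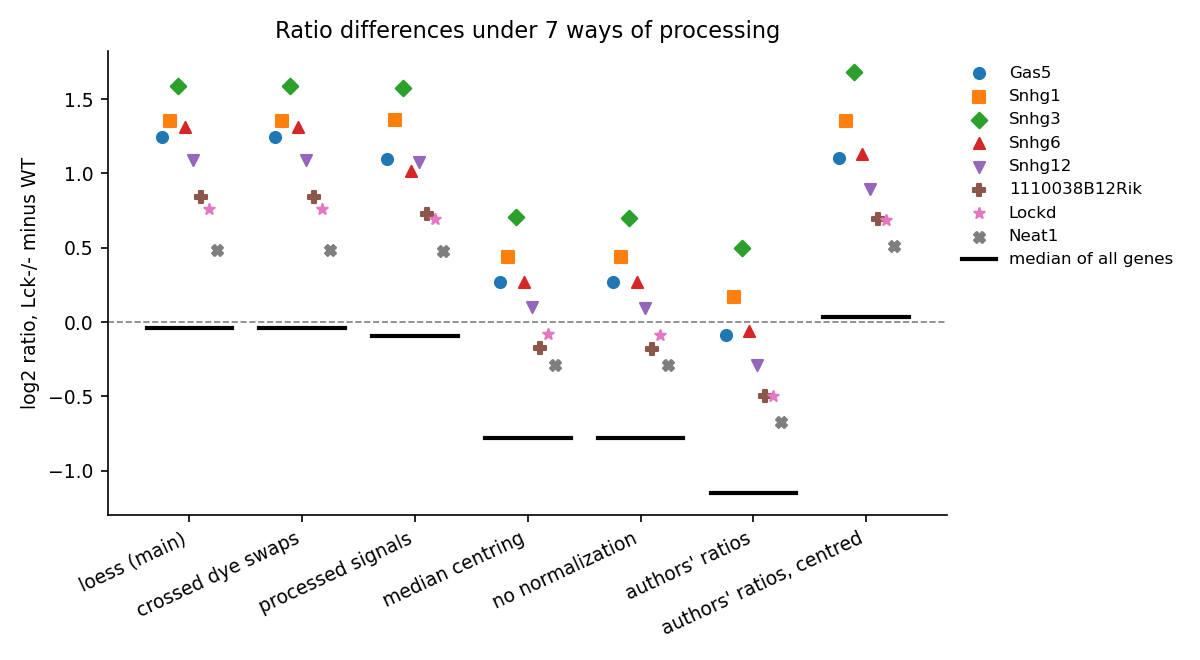
The plot gives the difference in log2 ratio, Lck-/- minus WT, of the 8 tested genes (symbols) under 7 ways of processing, with a black bar at the median of all tested genes. Snhg3 is the highest of the 8 in each, the bar lies at -0.04 after loess and at -1.15 in the authors' ratios, and Neat1 moves from 0.48 to -0.67 between these 2.

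The third question is what moved in each fraction. The sub-polysomal level fell for most of these RNAs in Lck-/- cells, and the polysomal level for few. Levels are log2 intensities of a single channel, scaled so that the average intensities of all arrays have the same distribution. Of 9 tested genes 7 fell in the sub-polysomal level and 0 rose, beside 10.8% of all 9703 genes that fell and 9.49% that rose, with a median difference of -1.12 against 0.05 for all genes. Of the 9 genes 8 had every Lck-/- extract below every WT extract, beside 12.3% of all genes. Only Neat1 overlapped.

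Snhg3 fell furthest of the 9. Its sub-polysomal level was 14.23, 14.08, 14.59 and 15.04 in WT and 12.05, 12.22, 11.41 and 10.83 in Lck-/-, and fell by 2.86 (SE 0.30, limma adjusted p = 0.000512) or 7.24-fold. Lockd stood at 11.24, 11.25, 12.11 and 11.20 in WT and at 9.69, 8.91, 8.98 and 9.31 in Lck-/-, and fell by 2.23 (SE 0.24, adjusted p = 0.000512) or 4.69-fold. As labelled, the gap between genotypes was wider than the range within either for both genes. With crossed dye swaps this no longer held for Snhg3. Its WT arrays then paired at 15.12 with 14.96 and at 13.20 with 13.34, above the highest Lck-/- extract at 12.22.

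The other hosts fell less. Gas5 was at 15.58, 15.49, 15.54 and 15.68 in WT, within 0.08 SD, and at 13.45, 14.36, 14.25 and 14.08 in Lck-/-, and fell by 1.54 (SE 0.19, adjusted p = 0.00102). Snhg1 fell by 1.55 (SE 0.22, adjusted p = 0.00230), from 13.40 ± 0.18 to 11.85 ± 0.50 (SD, n = 4). Snhg6 fell by 1.12 (SE 0.20, adjusted p = 0.00459) and 1110038B12Rik by 0.84 (SE 0.16, adjusted p = 0.00582). Snhg12 stood at -0.68 (SE 0.24, adjusted p = 0.0647) and did not pass, although its 4 Lck-/- extracts, at 13.16, 14.29, 14.20 and 14.08, lay below the lowest WT extract at 14.36.

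Of the nuclear RNAs, Malat1 fell by 0.83 (SE 0.17, adjusted p = 0.00726), from 8.64, 8.84, 8.78 and 8.28 in WT to 7.50, 7.78, 8.02 and 7.93 in Lck-/-. These are dim signals, well above background on 8 of 8 WT arrays and 7 of 8 Lck-/- arrays in this channel. Neat1 stood at -0.65 (SE 0.26, adjusted p = 0.0986) and varied within WT alone from 10.88 to 12.11.

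The sub-polysomal falls were less tied to the pairing of arrays than the ratio. With crossed dye swaps the count was again 7 of 9, with adjusted p from 0.000788 for Lockd to 0.0351 for Malat1. Without WT replicates 1 and 2 it was 6, as Malat1 no longer passed (adjusted p = 0.0582). On slide 1 alone 8 genes fell, and on slide 2 alone 3 did, Gas5, Snhg3 and Lockd, with differences of -1.31, -2.24 and -2.26. With median centring in place of loess the median of all genes moved from 0.05 to 0.37, 6 genes fell and 1110038B12Rik stood at -0.33 (adjusted p = 0.258). Of all 9703 genes 1044 fell as labelled, 648 with crossed dye swaps and 670 without WT replicates 1 and 2. On slide 1 it was 1253, on slide 2 131 and with median centring 326. The lower count on slide 2 thus came with fewer falls among all genes.

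**Figure D3:**
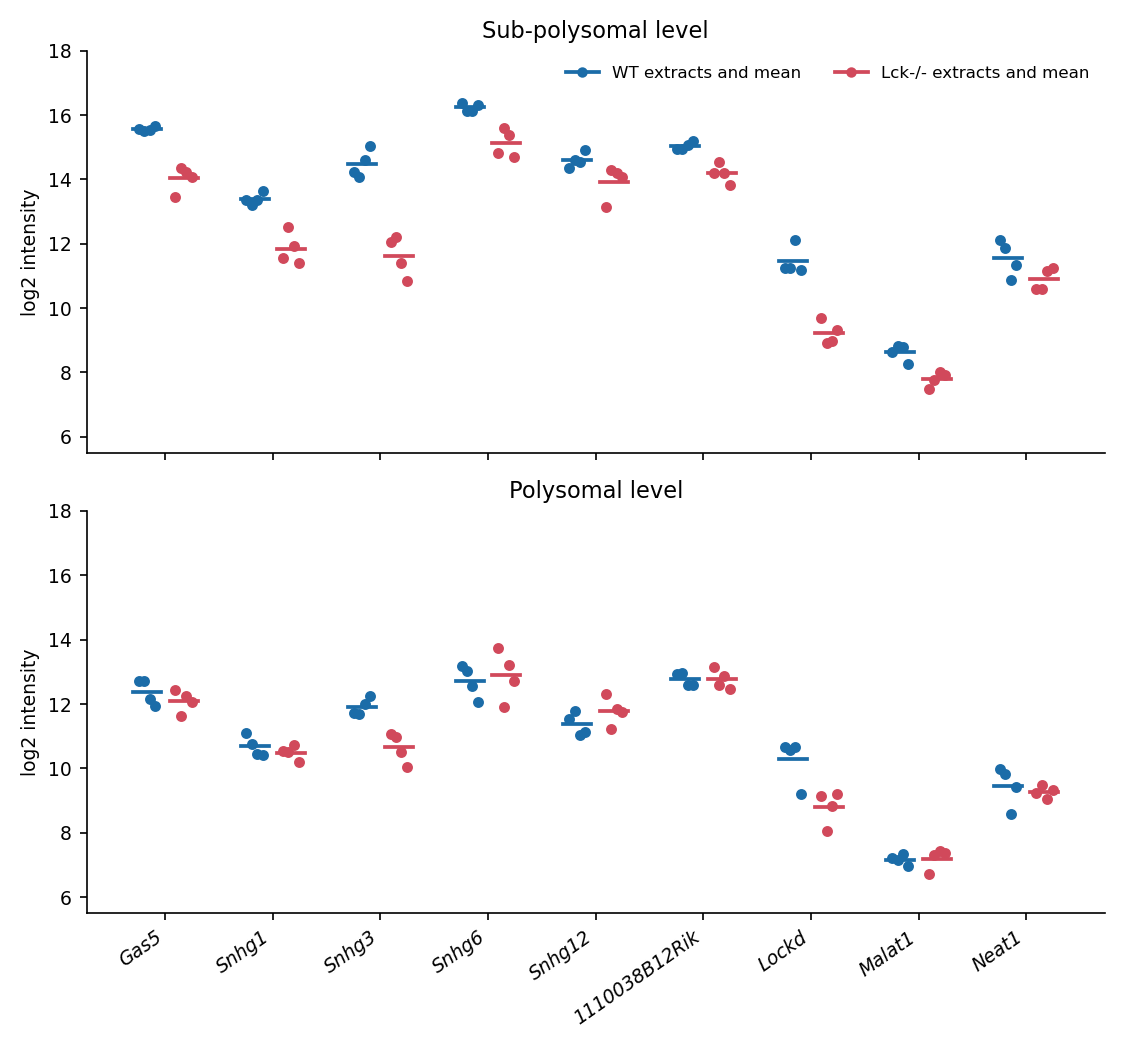
The plot gives the log2 intensity of the sub-polysomal channel (top) and of the polysomal channel (bottom) for the 9 genes tested, with a point for each of the 4 WT and 4 Lck-/- extracts and a bar at each mean. Gaps between the genotypes are seen in the top panel for all but Neat1, and in the bottom panel for Snhg3 and, by a small margin, Lockd.

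In the polysomal level only Snhg3 and Lockd fell. That is 2 of 9 genes with 0 that rose, beside 9.24% of all 10290 genes that fell and 5.98% that rose, and the same 2 genes had no overlap of extracts, beside 12.9% of all genes. Snhg3 was at 11.73, 11.68, 12.02 and 12.26 in WT and at 11.07, 10.99, 10.52 and 10.04 in Lck-/-, and fell by 1.27 (SE 0.24, limma adjusted p = 0.00649). Lockd was at 10.66, 10.57, 10.66 and 9.22 in WT and at 9.13, 8.05, 8.84 and 9.21 in Lck-/-, and fell by 1.47 (SE 0.34, adjusted p = 0.0172). WT replicate 4 of Lockd, at 9.22, barely cleared the highest Lck-/- extract at 9.21. Both calls held with crossed dye swaps (adjusted p = 0.0145 and 0.0411), and Lockd lost its call without WT replicate 2 or 3 (adjusted p of up to 0.0548) and without WT replicates 1 and 2 together (adjusted p = 0.156). On slide 1 neither passed, at -1.39 (adjusted p = 0.0531) and -1.83 (adjusted p = 0.0814), and on slide 2 Snhg3 fell by 1.15 (adjusted p = 0.0174) while Lockd stood at -1.11 (adjusted p = 0.0600).

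The polysomal levels of the other 7 genes differed by -0.29 for Gas5 to 0.42 for Snhg12, with adjusted p from 0.258 to 0.998. 1110038B12Rik had means of 12.77 in both genotypes. Their SEs were 0.18 to 0.35. That none passed does not show that the levels were equal, and several turned sign with the processing.

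**Figure D4:**
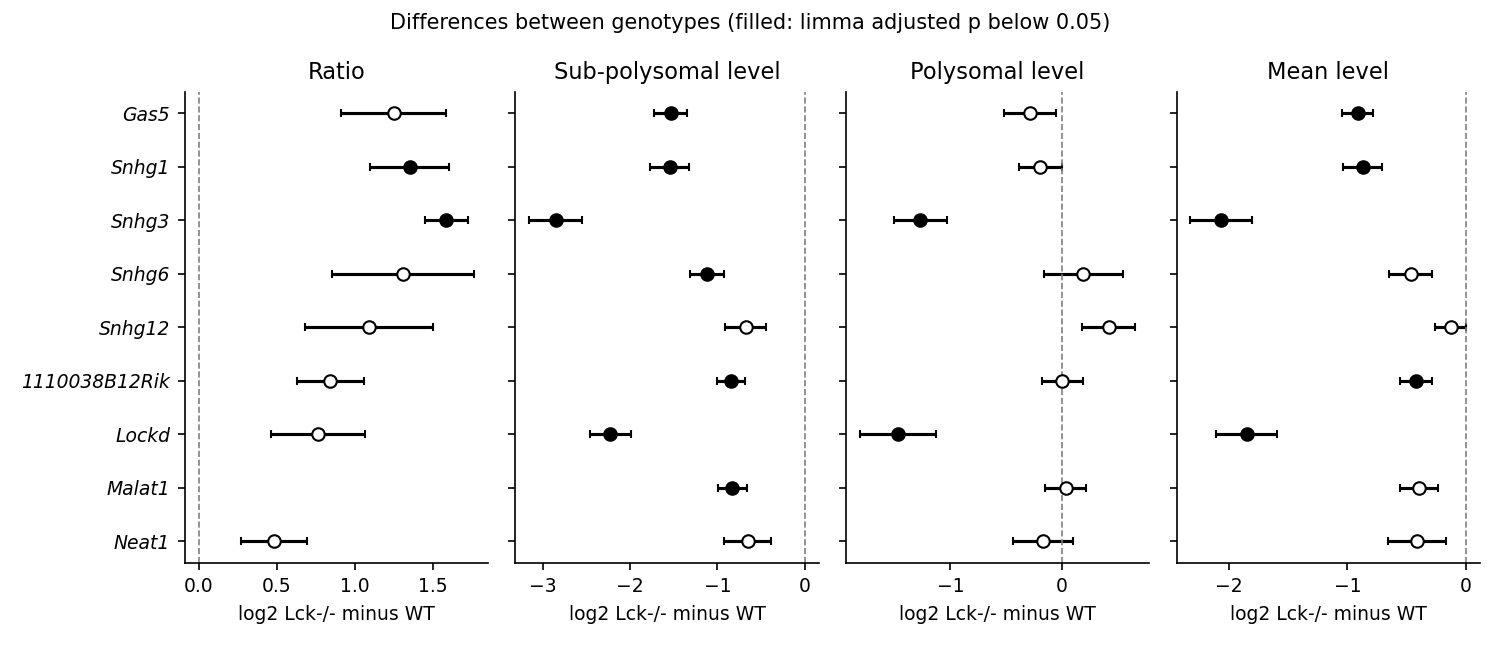
The panels give the log2 difference, Lck-/- minus WT, of each gene in the ratio, the sub-polysomal level, the polysomal level and the mean level, with bars of 1 SE and filled points where limma's adjusted p was below 0.05. The sub-polysomal panel holds 7 filled points, from -2.86 for Snhg3 to -0.83 for Malat1, and the polysomal panel 2.

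The mean of the log2 levels of both fractions was lower for 5 genes in Lck-/- cells. This mean weighs both pools alike, however much RNA each held, and so is not the total amount of an RNA. A shift of RNA between the pools can move this mean at a constant amount. Of 9 genes 5 fell and 0 rose, beside 11.0% of all 9393 genes that fell and 9.85% that rose, and the same number had no overlap, beside 12.7% of all genes. Snhg3 had mean levels of 12.98, 12.88, 13.30 and 13.65 in WT and 11.56, 11.61, 10.96 and 10.44 in Lck-/-, and fell by 2.06 (SE 0.26, limma adjusted p = 0.00104) or 4.17-fold. Lockd had 10.95, 10.91, 11.39 and 10.21 in WT and 9.41, 8.48, 8.91 and 9.26 in Lck-/-, and fell by 1.85 (SE 0.26, adjusted p = 0.00149) or 3.60-fold. Both thus fell in either fraction as well as in the mean.

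Gas5 fell by 0.91 (SE 0.13, adjusted p = 0.00186) and Snhg1 by 0.87 (SE 0.16, adjusted p = 0.00584). The 2 dimmer probes of Gas5 read mean level differences of -0.72 and -0.22, so the size of its fall varied with the probe. 1110038B12Rik fell by 0.42 (SE 0.13, adjusted p = 0.0463), a call that was lost on leaving out any of 7 of the 8 extracts (adjusted p of up to 0.124), with crossed dye swaps (adjusted p = 0.0675), without WT replicates 1 and 2 (adjusted p = 0.217) and on either slide. Snhg6 stood at -0.47 (adjusted p = 0.0933), Neat1 at -0.41 (adjusted p = 0.246), Malat1 at -0.40 (adjusted p = 0.0996) and Snhg12 at -0.13 (adjusted p = 0.501). Snhg12 is thus a host with mean levels of 12.99 ± 0.17 in WT and 12.86 ± 0.13 in Lck-/- (SD, n = 4), while Snhg3, on the same chromosome, had the furthest fall of the 9. With crossed dye swaps Gas5, Snhg1, Snhg3 and Lockd kept their calls (adjusted p from 0.00132 to 0.00935). Without WT replicates 1 and 2 Gas5, Snhg3, Lockd and, at adjusted p = 0.05, Snhg1 also passed. On slides 1 and 2 Snhg3 stood at -2.43 and -1.69 and Lockd at -2.01 and -1.68, all with adjusted p of at most 0.0168.

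Protein-coding genes next to these RNAs, named from the order of genes in the reference table and not from these coordinates, stood in either direction. Rcc1, the chromatin-bound exchange factor of Ran whose locus adjoins Snhg3, rose by 0.71 in the mean level (SE 0.15, limma adjusted p = 0.00865) where Snhg3 fell by 2.06. Phactr4, on the other side of Snhg3, stood at 0.37 (adjusted p = 0.0559). Cdkn1b, beside Lockd, stood at -0.36 (SE 0.14, adjusted p = 0.0866) where Lockd fell by 1.85. These pairs lie apart by more than their errors, but the difference within a pair was not tested.

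Slc3a2, the amino acid transporter heavy chain beside Snhg1, stood at 0.12 (adjusted p = 0.698), and Wdr74, a ribosome assembly factor on its other side, fell by 0.69 (SE 0.19, adjusted p = 0.0270). Beside Gas5, Serpinc1 fell by 0.92 (adjusted p = 0.0135) and Cenpl, a centromere protein, by 1.24 (adjusted p = 0.000971). Neu1, the lysosomal sialidase beside 1110038B12Rik, rose by 0.58 (adjusted p = 0.0106), and Sgk3, a kinase beside Snhg6, fell by 0.87 (adjusted p = 0.00807). Frmd8, on the side of higher coordinates of both Malat1 and Neat1, stood at 0.10 (adjusted p = 0.729), and Trnau1ap, beside Snhg12, at 0.39 (adjusted p = 0.0586).

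**Figure D5:**
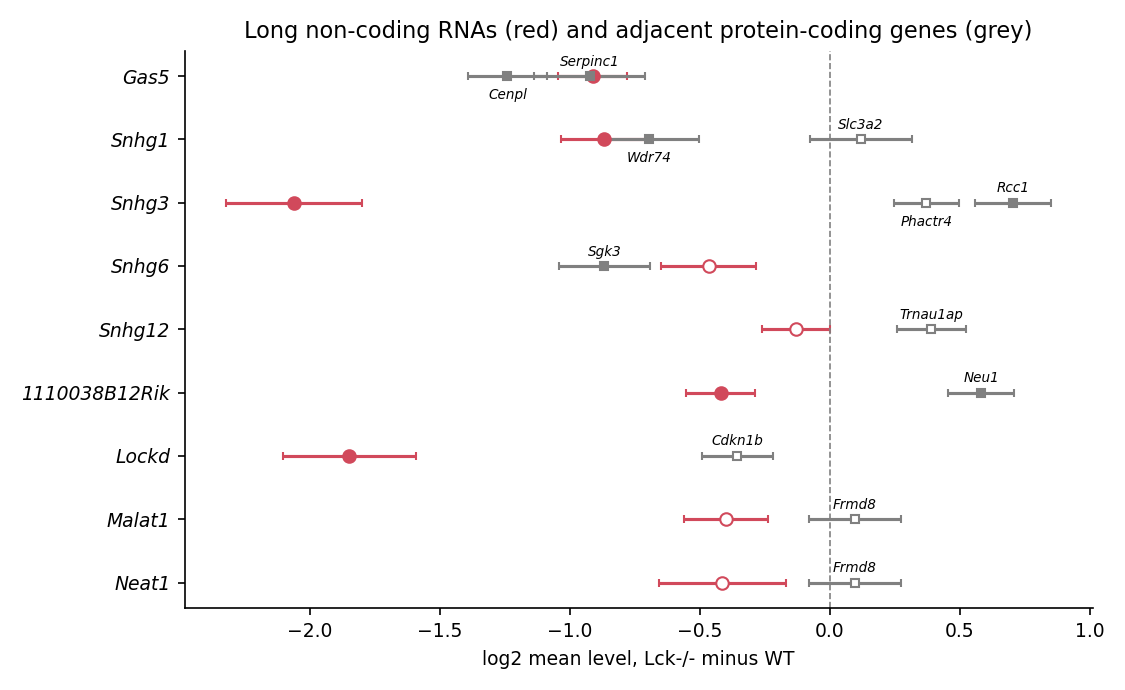
The plot gives the log2 difference in mean level, Lck-/- minus WT, of 9 long non-coding RNAs (red circles) and of the adjacent protein-coding genes named in the text (grey squares), with bars of 1 SE and filled symbols where limma's adjusted p was below 0.05. Snhg3 at -2.06 and its neighbour Rcc1 at 0.71 lie on opposite sides of 0.

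A list of other hosts of snoRNAs and small Cajal body RNAs was examined in the same way. It also holds Mir17hg, which is a host of microRNAs. Of 18 listed, 13 were on the array and 8 were tested, and their median ratio was -2.35 in WT and -1.30 in Lck-/-. In the ratio 4 of 8 rose and 0 fell, beside 2.81% and 1.05% of all genes. They were Dancr (1.16, SE 0.16, limma adjusted p = 0.00353), Mir17hg (0.81, adjusted p = 0.00527), Snhg7 (0.89, adjusted p = 0.0161) and Zfas1 (1.17, adjusted p = 0.0325). In the sub-polysomal level 4 fell and 0 rose, with Snhg7 at -0.78 and Dancr at -0.86, beside 10.8% of all genes that fell, and in the polysomal and the mean level 0 of 8 passed limma's test in either direction, with medians of 0.21 and -0.21. At an unadjusted p below 0.05 there was 1 in each, Snhg16 at 0.52 in the polysomal level and Snhg7 at -0.34 in the mean level. Snhg16, the gene whose levels were most like those of Snhg12, had mean levels of 13.13 in WT and 13.16 in Lck-/- and a ratio difference of 0.99 (adjusted p = 0.0759).

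Of 34 other long non-coding RNAs 23 were on the array and 6 were tested for the ratio. Of the 6, 1 rose and 0 fell, beside 2.81% and 1.05% of all genes. The 1 that rose was Rmrp, the RNA of the nuclease RNase MRP. It went from -6.02 in WT to -4.61 in Lck-/- (difference 1.41, SE 0.22, limma adjusted p = 0.00730). In the mean level 2 of 8 rose and 0 fell, beside 9.85% and 11.0% of all genes. Airn rose by 0.50 (adjusted p = 0.0301) and Peg13 by 0.46 (adjusted p = 0.0312), with a list median of 0.08. In the sub-polysomal level 1 of 10 rose, Peg13 by 0.56 (adjusted p = 0.0209), and 1 fell, Rmrp at -1.30 (adjusted p = 0.00726). These counts are near the shares of all genes, 9.49% that rose and 10.8% that fell. In the polysomal level 1 of 10 rose, Airn by 0.90 (adjusted p = 0.0486), and 0 fell, beside 5.98% and 9.24% of all genes.

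Ribosomal protein mRNAs, the best known TOP class, went from a median ratio of -1.37 to -0.39, with 47 of 76 that rose and 0 that fell in the ratio, beside the 2.81% of all genes that rose. In the sub-polysomal level 44 fell and 0 rose, beside the 10.8% of all genes that fell. In the polysomal level 20 of the 76 rose and 0 fell, beside 5.98% of all genes that rose, and their median was 0.48. Of the 9 long non-coding RNAs 0 rose and 2 fell there, with a median of -0.17. In the mean level 5 of the 76 fell and 0 rose, beside 11.0% of all genes that fell. Their median in that level was -0.02, while the median of the 9 long non-coding RNAs was -0.47.

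Factors that act on these RNAs were measured as mRNAs, and in the mean level 9.85% of all genes rose and 11.0% fell. Of 18 snoRNP protein genes 4 rose and 1 fell in that level. Fbl, the methyltransferase fibrillarin, rose by 0.88 (SE 0.17, adjusted p = 0.00729) and Naf1, an assembly factor of H/ACA particles, by 0.57 (adjusted p = 0.0146), while Znhit3, an assembly factor of box C/D particles, fell by 0.77 (adjusted p = 0.00737). Of 20 tested genes of nonsense-mediated decay 3 rose and 1 fell. Smg6, the endonuclease of the pathway, rose by 0.57 (adjusted p = 0.0242) and Dcp2, the decapping enzyme, by 0.63 (adjusted p = 0.0214), and Pnrc2 fell by 0.61 (adjusted p = 0.0113). Of 22 paraspeckle and speckle protein genes 2 rose and 0 fell, a share of rises no higher than that of all genes. In the ratio these 3 groups gave 0, 1 and 0 rises and 0 falls.

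The starts of the hosts are shown because several hosts are known to begin with a TOP tract. Promoter entries from RefSeq on GRCm38.p6 were found for 8 of the 10 genes. The run described is the longest stretch of C or T that begins with C within 10 bases of the annotated start, and it is printed in capitals within 30 bases before and 30 from the start. Gas5 and 1110038B12Rik have 2 entries each, and that with the start nearer to a run is shown. The Gas5 entry not shown, at chr1:161034571-161034630, has a run of only 3 bases, and 69.8% of all promoters have a run of at least 3.
Snhg12, chr4:132308648-132308707, plus strand: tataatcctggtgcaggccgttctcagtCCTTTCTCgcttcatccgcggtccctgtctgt
Gas5, chr1:161035136-161035195, plus strand: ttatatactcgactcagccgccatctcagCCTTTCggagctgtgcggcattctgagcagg
1110038B12Rik, chr17:34952439-34952498, minus strand: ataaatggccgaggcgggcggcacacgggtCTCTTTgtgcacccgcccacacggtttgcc
Snhg3, chr4:132353657-132353716, minus strand: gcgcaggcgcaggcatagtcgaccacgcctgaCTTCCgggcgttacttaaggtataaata
Snhg1, chr19:8723457-8723516, plus strand: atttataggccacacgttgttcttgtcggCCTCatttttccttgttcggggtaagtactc
The run has 8 bases in Snhg12, 6 in Gas5 and 1110038B12Rik, 5 in Snhg3 and 4 in Snhg1. Of all 32851 promoters 8.11% have a run of at least 8 bases, 19.2% of at least 6, 30.7% of at least 5 and 48.1% of at least 4. Lockd and Malat1 have runs of 4 bases, which begin 8 bases before the start. Snhg8, which has no measured level, has a run of 6 bases. A run is a description of the sequence and does not show how the RNA is translated.

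Likeness between these RNAs was read from their levels. Over 16 levels (both fractions of 8 extracts, which share arrays, so that these are descriptions) Gas5 correlated with Snhg1 at 0.976, with Snhg6 at 0.974 and with 1110038B12Rik at 0.978, but with Snhg3 at 0.811 and with Lockd at 0.643. Neat1 correlated with Gas5 at 0.914, with Snhg12 at 0.901 and with Snhg3 at 0.652. Snhg12 correlated with Snhg3 at 0.647, and Snhg3 with Lockd at 0.806. Of all other named genes Snhg16 was most like Snhg12 (0.987), and Zfas1 was among the 3 most like Snhg6 (0.973). The genes most like Lockd were Syce2 (0.959), Cenpx (0.956) and Cdca3 (0.948), and Cdkn1b was among the 3 most like Neat1 (0.951). The 16 levels include the distance between the fractions, which the ratio already describes.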

How the data were processed

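Per the file headers, the scanner output was made with Agilent Feature Extraction 10.7.3.1 and gives each spot's brightness as intensity, beside deposited flags (unit: other), on probes annotated to mm9. The authors' deposited table holds log2 ratios per extract, whose scale and centring are not given in the sources used here. The submitters' processing notes name limma. In R 4.3.3 with data.table (version 1.17.8) and limma 3.58.1, intensities were corrected with normexp (offset 50), ratios were normalised with loess within arrays, and single channels were scaled with Aquantile. Dye swaps were averaged per extract, and the brightest probe stood for a gene. Of 55681 probes, 27235 were matched to a RefSeq gene (GRCm38.p6) by accession, 3581 by symbol and 565 by synonym. A gene was tested when well above background on at least 6 of 8 arrays, in both channels and both genotypes for the ratio and in 1 genotype for levels. limma's linear models were adjusted by Benjamini and Hochberg over all genes tested, at a threshold of 0.05, and were tested on simulated data. SE is the moderated standard error, SD the spread of 4 extracts, and the number of arrays limits the precision. The genes, lists and tests were chosen with earlier results of these data known. Genes named are the 10, genes adjacent to them, those whose levels correlated best with theirs, and from each list the examples with the smallest p. Some items are not reported here. The closing section gives the effect of 25 other settings.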

Additional observations from a re-analysis of the deposited data

Results flagged for a closer look

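Among 80 groups of 4 extracts (10 genes, 4 quantities, both genotypes) 5 held an extract whose gap to its nearest neighbour took up most of the range of the group, and chance alone gives about 1 in 20. For Lockd, WT replicate 4 stood at 9.22 in the polysomal level, with the next WT extract at 10.57, and WT replicate 3 at 12.11 in the sub-polysomal level, with the next at 11.25. For Malat1, Lck-/- replicate 1 stood at 6.70 in the polysomal level, with the next at 7.30. For Snhg8, which was not well above background on any array, WT replicate 1 stood at -0.27 in the ratio and Lck-/- replicate 1 at 6.41 in the mean level. The ratio differed between the genotypes for Snhg1 by 1.35 and for Snhg3 by 1.59.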

How the results depend on the processing

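Same-numbered extracts of the genotypes were not clearly paired, with correlations of their deviations of 0.06, -0.17, 0.26 and -0.24 in the ratio. In the mean level these were -0.07, -0.09, 0.42 and -0.20. For replicates 1 and 2 the check cannot decide, because the pairing of their WT arrays is in doubt. With the number as a replicate block 2 genes were called in the ratio, 4 in the mean level, 2 in the polysomal and 7 in the sub-polysomal level. Of all genes it called 180, 1563, 1409 and 1155, in that order. The ratio difference called 2 genes as given, 0 with median centring, on slide 2 and with crossed dye swaps, 1 without normalisation and in the authors' deposited ratios, 4 over 16 arrays with slide and dye terms, 6 with array weights, and 1 to 5 on leaving out 1 extract. Of all 8263 genes the ratio called 319 as given, 37 on slide 2, 41 with crossed dye swaps and 387 over 16 arrays. It called 1997 with array weights and 103 to 443 on leaving out 1 extract, so the counts above move with the setting. Array weights called 8 genes in the mean level, where they called 5147 of all 9393 genes, against 1957 as given. The polysomal level called 0 on slide 1, 1 without WT replicates 1 and 2, and 1 to 2 on leaving out 1 extract, and the sub-polysomal level called 3 on slide 2. Of all genes the polysomal level called 86 on slide 1 and 246 without WT replicates 1 and 2, against 1566 as given. For the sub-polysomal level it was 175 on slide 2, against 1965 as given. Signs of the ratio difference turned for 1110038B12Rik, Lockd and Neat1 with median centring (-0.17, -0.082 and -0.29) and without normalisation (-0.18, -0.087 and -0.29), and in the authors' deposited ratios for Gas5 (-0.087), Snhg6 (-0.061), Snhg12 (-0.29), 1110038B12Rik (-0.50), Lockd (-0.50) and Neat1 (-0.67). The mean level turned for Snhg12 on slide 2 (0.053) and Neat1 without WT replicates 1 and 2 (0.033). Among polysomal levels not called as given, signs turned with median centring for Snhg6 (-0.33), Snhg12 (-0.080), 1110038B12Rik (-0.51) and Malat1 (-0.15), with processed signals for 1110038B12Rik (-0.031) and Malat1 (-0.15), without background correction for Malat1 (-0.030), with the mean of all probes for Gas5 (0.022), on slide 1 for 1110038B12Rik (-0.079) and Malat1 (-0.22), on slide 2 for Gas5 (0.021) and Neat1 (0.15), without WT replicates 1 and 2 for Gas5 (0.052), Snhg1 (0.049) and Neat1 (0.28), and for 1110038B12Rik with array weights (-0.12) and quantile scaling (-0.11). On leaving out 1 extract they ranged from -0.091 to 0.52 for Snhg6, -0.13 to 0.099 for 1110038B12Rik, -0.042 to 0.20 for Malat1 and -0.46 to 0.0052 for Neat1. Lockd's ratio turned in WT (0.24 without normalisation, 0.68 in the authors' deposited ratios) and in Lck-/- (0.16 and 0.18). The cause was not tested. No sub-polysomal difference turned sign in 198 alternatives over 9 genes, and 186 stayed on the same side of the threshold, those of Snhg12 and Neat1 among them without a call. Dim probes limit Snhg8 and Malat1.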
